A study of Mus musculus with 2 samples.

Results

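The nuclei described here are Muc2-rich goblet nuclei of the mouse colon that carried few transcripts of the genes marking mature and Reg4-type goblet cells. Members were chosen by measured values, the shares and counts of 9 genes. A barcode was kept if it had 500 or more UMIs (unique molecular identifiers, 1 per counted RNA molecule), if it had 300 or more genes with a UMI and if mitochondrial genes made up no more than 10% of its UMIs. A kept nucleus was a member if Muc2 made up at least 0.5% of its UMIs, if Fcgbp, Clca1 and Zg16 together made up less than 1.5%, and if Mptx1, Reg4, Spink4, Best2 and Gal3st2c together gave fewer than 4 UMIs. This rule found 2874 members among 21034 kept nuclei, 1253 of 8888 in the wild-type library and 1621 of 12146 in the Pink1 knockout library.

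The study profiled colon nuclei of male C57BL/6 mice aged 15 weeks by droplet sequencing of 3' tags. One library came from wild-type littermates and the other from Pink1 knockout mice, and each pooled sorted nuclei of 3 mice, so no value for a single mouse exists. The labels give batch 1 for the wild-type and batch 2 for the knockout library, hence genotype, batch and library cannot be told apart. The sources used here do not say how the knockout allele was made.

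With 1 library per genotype there was no replicate check and no test between genotypes, and every interval below is a 95% interval that covers counting error only (exact binomial for shares and, given their sum, for ratios of counts). Levels (CPM) are UMIs per 1000000 UMIs of all nuclear-encoded genes except the 9 genes of the rule. "Called" means at least 1.5-fold apart, among genes with at least 50 UMIs. Members were set beside other Muc2-high nuclei, which passed the Muc2 limit and failed another limit of the rule (1658 nuclei, 751 of them Fcgbp-high and 907 Reg4-type), beside 11959 Muc2-low epithelial nuclei and beside 3168 non-epithelial nuclei. In summed nuclei, fewer nuclei with a gene on and less RNA of it per nucleus cannot be told apart.

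Goblet cells make and secrete the gel-forming mucin Muc2, which is folded in the endoplasmic reticulum, glycosylated in the Golgi and packed into granules. They arise from crypt progenitors in which Notch signalling is low, through the transcription factor Atoh1 and the factors Spdef and Gfi1 that act with or after it, and their programme changes as they move up the crypt. Fcgbp, Clca1 and Zg16 encode secreted components of the mucus layer. Pink1 is a mitochondrial kinase that marks damaged mitochondria for removal.

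The libraries were of similar depth. Kept nuclei had a median of 1665 UMIs in the wild-type and 1623 in the knockout library, and members had 2075 and 1973. Mitochondrial UMIs were less alike. Their median share was 0.0619% in wild-type and 0.122% in knockout members, and 26.3% and 8.02% of members held none. All kept nuclei differed likewise, at 0.0834% and 0.154%, with 24.99% and 9.18% holding none. The cause was not tested. The libraries shared 28 barcodes, and no member barcode was shared. Scrublet scores marked 11.01% of wild-type and 17.3% of knockout members as possible doublets, against 7.11% and 9.71% of all kept nuclei. These nuclei stay in the values below. Of the nuclei with a non-epithelial profile, 19 of 1194 and 13 of 1974 met the rule. Other members fell into clusters named by markers of other cell types, as given below.

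The targeted gene was sparse in both libraries. Pink1 (chr4:138313409-138326307, minus strand, GRCm38) had 25 UMIs in wild-type members (9.07 CPM) and 21 in knockout members (5.92 CPM), a knockout over wild-type ratio of 0.653 (0.348 to 1.22). In Muc2-low epithelial nuclei, with 112 and 83 UMIs, the ratio was 0.5701 (0.424 to 0.764). Where in the gene the counted tags fall was not analysed here, so these counts do not check the deletion, and "knockout" means the library with that label throughout.

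Members made up similar shares of both libraries. They were 14.1% (13.4 to 14.8) of kept wild-type nuclei and 13.3% (12.8 to 13.96) of kept knockout nuclei, a ratio of 0.947 (0.879 to 1.02). The ratio was 0.905 (0.835 to 0.98) without possible doublets and 0.917 (0.855 to 0.983) after thinning to 500 UMIs. Of all Muc2-high nuclei they were 62.96% (60.8 to 65.1) and 63.8% (61.9 to 65.6), a ratio of 1.01 (0.9402 to 1.09). As shares of all Muc2-high nuclei, Fcgbp-high nuclei were more frequent in the knockout library, at a ratio of 1.18 (1.01 to 1.37), and Reg4-type nuclei less frequent, at 0.842 (0.738 to 0.961).

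The genes of the rule describe the members as they were chosen. Muc2 was 1.77% of all UMIs of wild-type members and 1.63% of those of knockout members, while Fcgbp, Clca1 and Zg16 together were 0.119% and 0.142%. Just inside the Muc2 limit lay 40 and 57 members of the wild-type and knockout libraries with Plet1 at 95.8 and 128 CPM, and just outside it 54 and 52 nuclei with Plet1 at 44.4 and 85.6 CPM. Just inside the limit on Fcgbp, Clca1 and Zg16 lay 45 and 46 members with Tff3 at 438 and 445 CPM, and just outside it 39 and 43 nuclei with 330.2 and 352 CPM. With 3 UMIs of the 5 Reg4-type genes, 79 and 77 members had Tff3 at 67.2 and 128 CPM, and with 4 UMIs, 81 and 82 nuclei outside the rule had 313 and 602 CPM.

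The markers in the working name of these nuclei were present. Plet1, a surface protein anchored by a lipid (chr9:50494525-50505482, plus strand, GRCm38), was at 184, 40.9, 4.22 and 5.51 CPM in wild-type members, other Muc2-high, Muc2-low epithelial and non-epithelial nuclei, and at 535, 130.3, 9.196 and 6.39 CPM in the knockout library. Car8, a carbonic anhydrase-related protein, was in the same order at 513, 175, 22.5 and 30.3 CPM and 479, 132, 22.4 and 20.9 CPM. Spdef, a factor of goblet maturation, was at 187, 121, 10.8 and 7.17 CPM and 317, 171, 17.9 and 14.6 CPM. In both libraries the members were highest of these 4 sets for all 3 genes.

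Even the leading markers were seen in a minority of members. After thinning each nucleus to 500 UMIs, Plet1 was seen in 8.54% (7.05 to 10.2) of wild-type members, 1.76% of other Muc2-high nuclei and 0.168% of non-epithelial nuclei, which should lack it. Unthinned, at median depths of 2075, 1991 and 1270.5 UMIs, the shares were 28.1%, 6.78% and 0.67%. Car8 was seen in 19.8% (17.6 to 22.1) of thinned wild-type members, 5.56% of other Muc2-high and 1.59% of non-epithelial nuclei. In the thinned knockout library, Plet1 was seen in 19.25% (17.35 to 21.25) of members, 4.89% of other Muc2-high and 0.355% of non-epithelial nuclei. Car8 was seen there in 20.5%, 4.67% and 0.811%. Unthinned, 45.3% of knockout members held a Plet1 UMI.

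**Figure D1:**
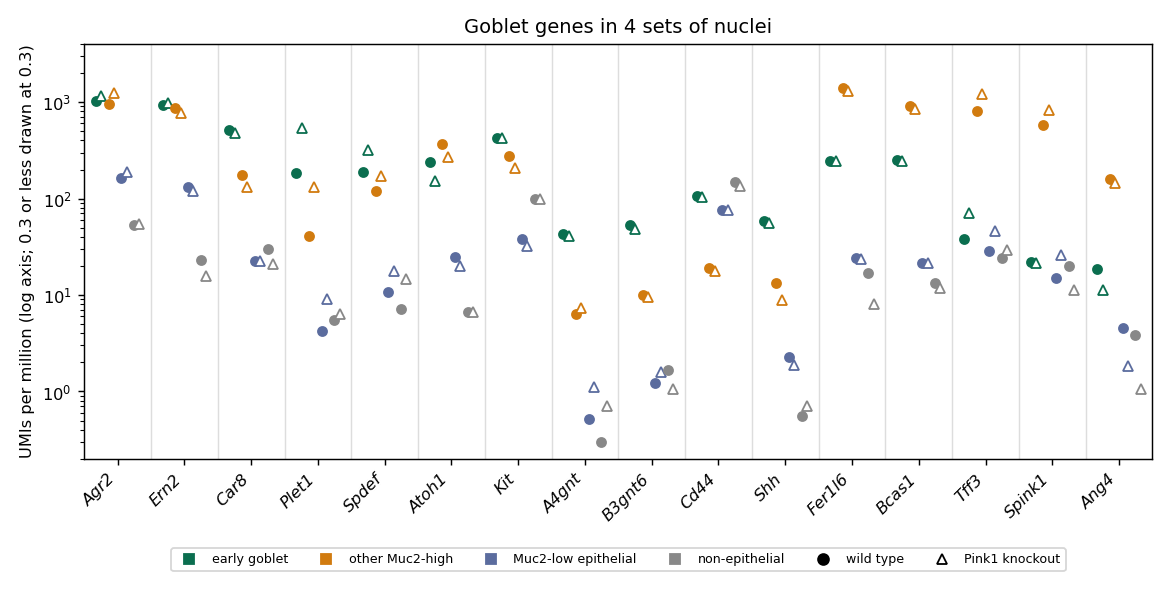
Level of 16 genes in 4 sets of nuclei, in CPM on a log axis. Circles are the wild-type and open triangles the knockout library; values of 0.3 or less are drawn at 0.3. Plet1 lies at 184 and 535 CPM in the members (green), and Tff3 at 37.7 and 70.8 CPM in the members and 800.1 and 1198 CPM in the other Muc2-high nuclei (orange).

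Set beside the Muc2-low epithelium, nearly all goblet markers were higher. Of 28 measured markers, 26 were called higher and 1 lower in wild-type members, where 13.2% of 11531 genes were called higher and 26.1% lower. In knockout members 27 were higher and 1 lower, against 13.6% and 27.1%. The list's median log2 ratio was 2.88 and 2.98, against -0.17 and -0.18 over all genes. Because Muc2 chose the members, these values describe the chosen nuclei and are no test. Agr2, a disulfide isomerase needed to fold Muc2, had ratios of 6.36 and 6.07 in the wild-type and knockout libraries, Ern2, the goblet form of the unfolded protein sensor Ire1, 7.19 and 8.08, and Sytl2, which tethers secretory granules, 12.1 and 13.5. The lower gene was Nlrp6, an inflammasome receptor, at 29.02 and 23.1 CPM in members against 157 and 164 CPM.

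Factors of the secretory lineage had the same pattern. Of 17 measured factors, 12 were called higher in wild-type and 13 in knockout members and 1 was lower in each. Of all genes, 13.2% were called higher and 26.1% lower in the wild-type and 13.6% and 27.1% in the knockout library. The list's median log2 ratios were 1.61 and 1.86, against -0.17 and -0.18 over all genes. Spdef, Atoh1 and Foxa3 are also goblet markers, so the lists overlap. Gfi1, a repressor downstream of Atoh1, had ratios of 10.4 (7.898 to 13.7) and 27.4 (17.9 to 43.9) over the Muc2-low epithelium, and the corepressor Cbfa2t3 had 11.4 and 14.7. Xbp1, which expands the secretory apparatus, had 3.04 and 3.47. The exception was Sox4, a progenitor factor, at 19.6 and 11.8 CPM against 74.6 and 46.1 CPM. Neurog3, the master factor of enteroendocrine cells, had no UMI in members of either library.

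Kit, a receptor tyrosine kinase, belonged to the members' profile. It was at 422, 278, 38.1 and 98.2 CPM in wild-type members, other Muc2-high, Muc2-low epithelial and non-epithelial nuclei, and at 424, 208, 32.4 and 99.3 CPM in the knockout library. Members exceeded other Muc2-high nuclei by ratios of 1.52 (1.36 to 1.698) and 2.04 (1.82 to 2.28). Kit also marks interstitial cells of Cajal, and the summed level of 5 markers of those cells, Kit included, was 656 and 677 CPM in members, near the 683 and 769.5 CPM in non-epithelial nuclei.

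Among Muc2-high nuclei the goblet markers split in both directions. Of 28 measured markers, 8 were called higher and 10 lower in wild-type members than in other Muc2-high nuclei, where 11.3% of 8555 genes were called higher and 10.0% lower. In the knockout library 10 were higher and 11 lower, against 13.2% and 10.1%. The list's median log2 ratio was -0.13 and -0.07, against 0.03 and 0.06 over all genes, and after thinning to 500 UMIs it was -0.44 and -0.48. The rule used this contrast, so the values are a description. Plet1 (4.495 and 4.11), Car8 (2.93 and 3.62), the cation-chloride transporter family gene Slc12a8 (1.79 and 1.99) and Creb3l1, a transcription factor of the secretory apparatus (1.86 and 1.74), were higher in both libraries, whereas Agr2 (1.08 and 0.922) was nearly level.

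Several goblet markers and genes of granule release that the rule did not use were lower. Tff3, the trefoil peptide secreted with mucus, had 104 and 251 UMIs in wild-type and knockout members, at 37.7 and 70.8 CPM against 800.1 and 1198 CPM in other Muc2-high nuclei. Spink1, a trypsin inhibitor, was at 22.1 and 21.4 CPM against 576 and 837 CPM. Both were an order of magnitude or more apart in both libraries. Tff3 was seen in 1.36% (0.792 to 2.16) of thinned wild-type members and in 1.68% of non-epithelial nuclei, so its share in members was no higher than background there, and in 2.96% (2.19 to 3.91) of knockout members against 1.72%. Unthinned shares were 5.91% and 9.93% of members. Fer1l6, a ferlin of membrane fusion, had ratios of 0.174 and 0.187, Rab27a, a GTPase of granule exocytosis, 0.206 and 0.222, Scin, which severs cortical actin, 0.197 and 0.194, and Sytl2 0.521 and 0.508.

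Apart from Spink1 and Tff3, the 12 genes furthest below other Muc2-high nuclei, ranked by the library with the smaller difference, were Cldn4, Ang4, Gal3st2, Sval1, Slfn4, Mfsd7a, Ddx60, Apobec1, Cyp2d34 and Ahnak2. Ang4, an antimicrobial ribonuclease, was at 18.5 and 11.3 CPM in members against 159 and 147 CPM. Sval1 was at 144 and 119.9 CPM against 1090 and 1057 CPM. Slfn4 was at 106 and 183 CPM against 762 and 1310 CPM, and 1 nucleus held 16.8% of its UMIs in wild-type members. Outside these 12, and chosen after their values were seen, Mxd1, an antagonist of Myc, had ratios of 0.218 and 0.158, the cell-cycle inhibitor Cdkn1a 0.204 and 0.212, and the keratin Krt20 0.278 and 0.257. Of 23 measured colonocyte genes, 6 were called higher and 5 lower in wild-type members, and 4 and 4 in knockout members, against 11.3% and 10.0% of all genes in the wild-type and 13.2% and 10.1% in the knockout library.

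The 12 genes furthest above other Muc2-high nuclei were Mvb12b, Nxpe2, Vipr2, Samd5, Rasgrf2, Slc22a17, Slc16a7, Cd44, A4gnt, Adamts17, B3gnt6 and Hoxd3. Nxpe2 was at 273 and 273 CPM in members against 28.3 and 33.1 CPM. Vipr2, a receptor for vasoactive intestinal peptide, was at 120.4 and 86.3 CPM against 15.7 and 8.41 CPM. Samd5 was at 151 and 104 CPM against 22.03 and 8.93 CPM. Signalling genes outside these 12, chosen after their values were seen, were also higher. The hedgehog ligand Shh was at 58.4 and 55.6 CPM against 13.2 and 8.93 CPM, and Ffar2, a receptor for short-chain fatty acids, at 156 and 149 CPM against 57.3 and 51.5 CPM. Etv5, an Ets factor, was at 111 and 112 CPM against 22.03 and 23.1 CPM.

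Genes of mucin glycans differed by enzyme. Of 34 measured genes, 7 were called higher and 4 lower in wild-type members than in other Muc2-high nuclei, and 6 and 4 in knockout members, against 11.3% and 10.0% of all genes in the wild-type and 13.2% and 10.1% in the knockout library. The median log2 ratios were 0.21 and 0.27. B3gnt6, the enzyme of core 3 O-glycans, was at 52.6 and 48.2 CPM against 10.1 and 9.46 CPM, ratios of 5.22 (3.11 to 9.38) and 5.102 (3.13 to 8.81). The galactosyltransferase B4galt4 had ratios of 3.05 and 3.299 and Gne, the first enzyme of sialic acid synthesis, 1.92 and 1.95. The branching enzyme Gcnt1 (0.299 and 0.147), the sulfotransferase Gal3st2 (0.115 and 0.109), Papss2, which makes activated sulfate (0.4097 and 0.499), and Galnt1, which starts O-glycans (0.551 and 0.477), were lower in both libraries. A4gnt, which caps O-glycans and is not on the list, had 117 and 144 UMIs and ratios of 6.74 (3.54 to 14.4) and 5.52 (3.19 to 10.4).

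Most genes of the endoplasmic reticulum and of traffic lay within 1.5-fold of other Muc2-high nuclei. Traffic genes were nevertheless called lower more often than all genes. Of 42 measured genes of the endoplasmic reticulum, 3 were called higher and 5 lower in wild-type members, and 5 and 9 in knockout members, against 11.3% and 10.0% of all genes in the wild-type and 13.2% and 10.1% in the knockout library, with medians of -0.19 and -0.22. The wild-type share that was lower was near that of all genes. The chaperone Hspa5 was at 132 and 326 CPM against 263 and 684 CPM, and Sec11c, a signal peptidase subunit, at 323 and 348 CPM against 170 and 182 CPM. Of 20 measured genes of vesicle traffic, none was higher and 6 were lower in wild-type members. In knockout members 2 were higher and 7 lower. Of all genes, 11.3% were higher and 10.0% lower in the wild-type and 13.2% and 10.1% in the knockout library. The medians of the traffic list were -0.29 and -0.16.

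Several genes of the crypt base were higher than in other Muc2-high nuclei. Of 17 measured crypt base and Wnt target genes, 7 were called higher and none lower in wild-type members, and 6 higher and 2 lower in knockout members, against 11.3% and 10.0% of all genes in the wild-type and 13.2% and 10.1% in the knockout library. The medians were 0.39 and 0.54, and after thinning to 500 UMIs, with 8 genes left, 0.43 and 0.03. Cd44, an adhesion receptor and Wnt target, was at 107 and 103 CPM against 18.9 and 17.9 CPM, ratios of 5.67 (3.89 to 8.55) and 5.76 (4.05 to 8.45). Ephb2 and Ephb3, receptors that position cells near the crypt base, had ratios of 2.47 and 2.54 and of 2.29 and 3.04, and Sox9 had 1.55 and 2.38. Tnfrsf19, a Wnt target, had 28 and 49 UMIs in members against 1 and 3 in other Muc2-high nuclei, ratios of 16.1 (2.67 to 659.8) and 8.77 (2.83 to 43.99). Its wild-type UMIs fell short of the count minimum for this comparison, so Tnfrsf19 was not among the 17 measured genes. Axin2, the Wnt feedback gene, had 1.32 (0.854 to 2.08) and 1.46 (1.01 to 2.16), and Myc, which was lower in the knockout library, 0.711 (0.427 to 1.19) and 0.455 (0.289 to 0.713).

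Stem and dividing profiles were lower than in the Muc2-low epithelium, which includes the crypt base. Of 21 measured crypt base and Wnt target genes, 2 were called higher and 12 lower in wild-type members, and 3 and 12 in knockout members, against 13.2% and 26.1% of all genes in the wild-type and 13.6% and 27.1% in the knockout library. Lgr5, the stem cell receptor, had 4 UMIs in wild-type members (1.45 against 41.6 CPM) and 35 in knockout members (9.88 against 40.4 CPM). Of 44 measured cell-cycle genes, 2 were higher and 40 lower in wild-type and 2 and 41 in knockout members, with medians of -1.72 and -1.75. The proliferation antigen Mki67 was at 47.2 and 57 CPM against 318 and 253 CPM. The higher genes were Ung, a DNA repair glycosylase (59.1 and 59.5 against 17.5 and 15.7 CPM), and the kinase Plk1 (27.2 and 29.1 against 9.38 and 9.12 CPM).

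Atoh1 did not follow the order of Plet1 and Spdef. It was at 242, 366, 24.9 and 6.62 CPM in wild-type members, other Muc2-high, Muc2-low epithelial and non-epithelial nuclei, and at 151, 268, 19.98 and 6.74 CPM in the knockout library. The ratio of members over other Muc2-high nuclei was 0.659 (0.589 to 0.738) and 0.562 (0.497 to 0.636), and over the alternative settings it ran from 0.642 to 0.807 in the wild-type and from 0.54 to 0.674 in the knockout library. Neither call held under every setting, and the knockout call was lost only where members had to hold a UMI of Plet1, Car8, Spdef or Atoh1. Klf4, a factor of goblet differentiation, had ratios of 0.346 and 0.3002, and Foxa2 0.615 and 0.479. Of 15 measured cell-cycle genes, 3 were called higher and 1 lower in wild-type members than in other Muc2-high nuclei, and 3 and none in knockout members, against 11.3% and 10.0% of all genes in the wild-type and 13.2% and 10.1% in the knockout library, with medians of 0.15 and 0.29. Set beside other Muc2-high nuclei, the word "early" thus goes with low mature products and with higher Cd44, Ephb2, Ephb3 and Sox9, while Atoh1 was lower.

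When all kept nuclei of both libraries were clustered without the 9 genes of the rule, most members fell into a pair of clusters. Cluster 2 held 686 wild-type and 954 knockout members (54.8% and 58.9% of the members), and members were 90.1% of its nuclei. Plet1, Car8, Etv5, Ffar2, Cmah, Dixdc1, Kcnh3, Piwil4, Spdef and A4gnt led it, and 20 goblet markers were at least 2-fold above the remaining nuclei. Cluster 14 held 208 and 230 members (16.6% and 14.2%), which were 91.6% of its nuclei. Cluster 7, led by Sval1, held 161 and 90 members (12.85% and 5.55%). Cluster 8, led by Spink1 and Fer1l6, held 59 and 108 (4.71% and 6.66%), and cluster 19, led by Capn9, 35 and 89 (2.79% and 5.49%). Leading genes define a cluster, so they are given as a description. The remaining clusters held 104 wild-type and 150 knockout members, some of them in clusters named by markers of other cell types. Cluster 6, named by fibroblast markers, held 7 and 24, and cluster 12, by smooth muscle markers, 5 and 20. Cluster 13, named by macrophage and dendritic markers, held 8 and 6, and the cell-cycle cluster 4 held 21 and 23.

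Cluster 14 was led by Meg3, Rian and Mirg, imprinted noncoding RNAs transcribed from the maternal copy of the Dlk1-Dio3 region (Meg3 at chr12:109541001-109571726, plus strand, GRCm38). Meg3 was at 25180 against 1224 CPM in the wild-type library and 21150 against 1245 CPM in the knockout library, its members against all other members. Rian was at 5936 against 208 CPM in the wild-type library and 4641 against 173 CPM in the knockout library. Mirg was at 1230 against 21.99 CPM in the wild-type library and 811 against 20.1 CPM in the knockout library, and Col8a1, a short-chain collagen, at 753 against 333 CPM in the wild-type library and 716 against 273 CPM in the knockout library. The goblet profile of cluster 14 was otherwise near that of cluster 2. Plet1 was at 225 and 573 CPM in members of cluster 14 and 242 and 714 CPM in those of cluster 2, Spdef at 201 and 304 and 227 and 406 CPM, and Car8, which differed, at 182 and 251 and 755 and 659 CPM, wild type first.

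**Figure D2:**
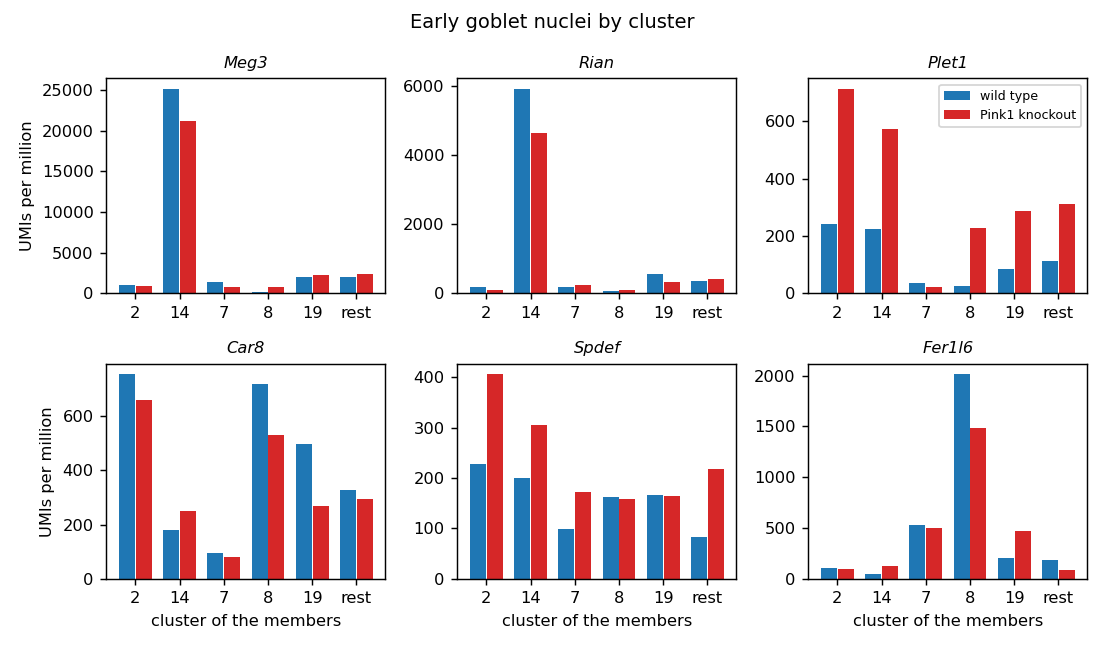
Level of 6 genes in the members of each cluster, in CPM, for the wild-type (blue) and knockout (red) library; "rest" is all other clusters. Meg3 and Rian are high in members of cluster 14 of both libraries, where Plet1 lies at 225 and 573 CPM against 242 and 714 CPM in cluster 2.

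Meg3 was far higher in members than in the Muc2-low epithelium, and was high in non-epithelial nuclei too. It was at 5816, 1282, 73.9 and 2107 CPM in wild-type members, other Muc2-high, Muc2-low epithelial and non-epithelial nuclei and at 4085, 872, 90.1 and 1658 CPM in the knockout library. At 500 UMIs, 27.4% (25 to 30.02) of wild-type and 25.9% (23.8 to 28.1) of knockout members held a Meg3 UMI, against 2.95% and 2.58% of Muc2-low epithelial nuclei, with unthinned shares in members of 33.9% and 32.5%. Plet1 was seen at like rates in thinned members with and without a Meg3 UMI, at 9.59% and 8.14% in the wild-type and 19.1% and 19.3% in the knockout library. Car8 was seen less often with than without a Meg3 UMI, at 13.1% and 22.3% in the wild-type and 15.7% and 22.2% in the knockout library. Col8a1 was seen more often with one, at 18.6% and 11.9% in the wild-type and 15.95% and 8.83% in the knockout library. Summed fibroblast markers, whose cells are one non-epithelial source, were at 66.8 and 136 CPM in members against 4509 and 5145 CPM in non-epithelial nuclei. The gap was smaller for other lists. Markers of interstitial cells of Cajal, Kit included, were at 656 and 677 against 683 and 769.5 CPM, and plasma cell markers at 258 and 356 against 1084 and 832 CPM. Rian was at 1306 and 811 CPM in members against 15.97 and 16.4 CPM in Muc2-low epithelium, and Mirg at 254 and 133 against 3.19 and 1.58 CPM.

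With Mirg, Rian, Meg3 and Plet1, the 12 genes furthest above the Muc2-low epithelium were Myrip, Samd5, Palmd, Col8a1, A4gnt, Pacsin1, Casc4 and Dixdc1. The 12 furthest below it were Ccl20, Naaladl1, Fut9, Abcg5, Slc37a2, Rab3c, Cubn, Grin2b, Dclk1, Slc13a1, Dnah5 and B4galnt3. Fut9, a fucosyltransferase of crypt cells, was at 22.9 and 26.5 CPM in members against 339 and 282 CPM. Slc37a2, a sugar phosphate carrier, was at 19.2 and 5.64 CPM against 198 and 60.1 CPM. Most of the others had few UMIs in members: Ccl20, Naaladl1, Abcg5, Rab3c, Cubn, Grin2b and Dnah5 had 3 or fewer in each library.

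Along the measures of the rule, other genes were graded. From members with 0.5% to 1% Muc2 to those with 2% to 3%, Plet1 went from 82.3 and 287 CPM in the wild-type and knockout libraries to 217 and 774 CPM, and Mxd1 went from 355 and 369 to 45.9 and 77.9 CPM. From members with no UMI of Fcgbp, Clca1 or Zg16 (731 and 914 nuclei) to those with 0.5% to 1.5% (134 and 166 nuclei), Tff3 went from 11.9 and 30.5 to 259.5 and 330.4 CPM, Fer1l6 from 104 and 95.1 to 1229 and 1171 CPM and Plet1 from 201 and 666 to 52.7 and 146 CPM. Atoh1 was at 239.6 and 140.3 CPM in the first and 247 and 209.6 CPM in the last of these bins. The bins split the members by the measures that chose them, and no test was made.

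**Figure D3:**
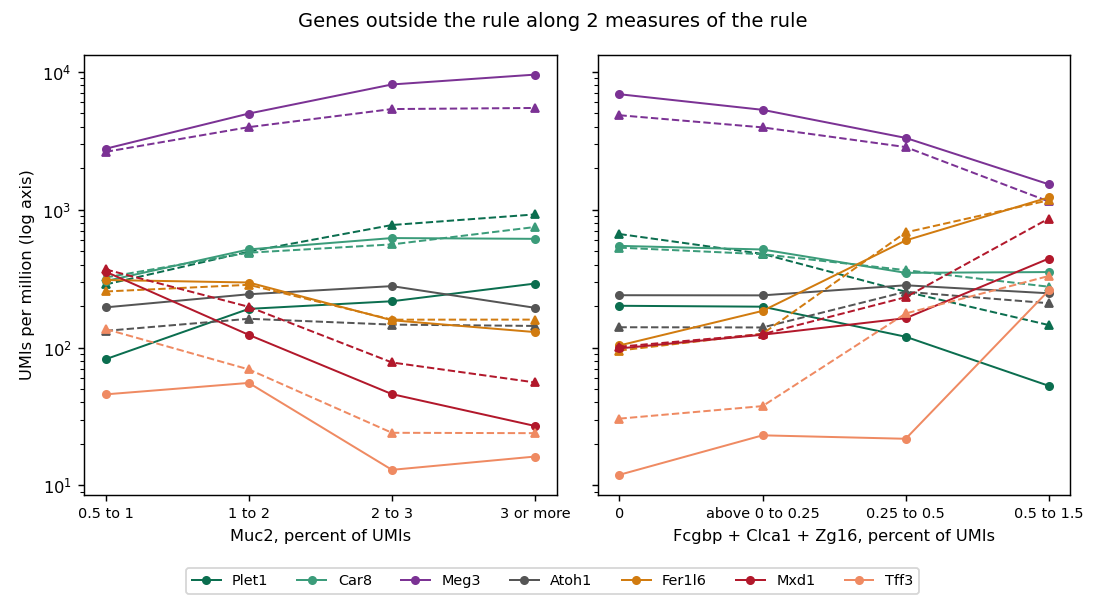
Level of 7 genes (CPM, log axis) in members binned by the share of Muc2 (left) and by the summed share of Fcgbp, Clca1 and Zg16 (right). Solid lines with circles are the wild-type and dashed lines with triangles the knockout library. Tff3 goes from 11.9 to 259.5 CPM from the lowest to the highest bin on the right in the wild-type library, while Plet1 goes from 201 to 52.7 CPM.

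Members also differed from other Muc2-high nuclei in Hox genes, positional transcription factors whose paralog numbers run from anterior to posterior along the body axis. This set was chosen after its values were seen. Of 13 measured Hox genes with paralog numbers 2 to 8, 9 were called higher in members of both libraries and none lower in both, with median log2 ratios of 1.63 and 1.67. Of all genes, 11.3% and 13.2% were called higher and 10.0% and 10.1% lower in the wild-type and knockout libraries, each counted alone. Of 7 with numbers 9 to 13, none was higher in both and 3 were lower in both, with medians of -0.47 and -0.94. Hoxd4 was at 185 and 148 CPM in wild-type and knockout members against 27.1 and 30.5 CPM in other Muc2-high nuclei, ratios of 6.83 (5.002 to 9.56) and 4.84 (3.69 to 6.47), and Hoxb4 at 314 and 300.5 against 81.8 and 67.8 CPM. Hoxb13 was at 18.1 and 13.5 against 39.7 and 43.1 CPM, ratios of 0.457 (0.309 to 0.674) and 0.314 (0.215 to 0.454), with Hoxd11 (0.295 and 0.375) and Hoxd13 (0.563 and 0.478) also lower. Hoxa5 and Hoxa6 did not share the pattern, with log2 ratios of -0.29 and -0.55 and of -0.17 and 0.01. Hoxa2 (0.555 and 0.33) and Hoxa7 (0.719 and 0.565) were not called in both libraries either. Of the measured Hoxa genes, only Hoxa3 (0.704 and 0.663) was, so the higher genes were mostly Hoxb and Hoxd genes. The labels do not record where along the colon a nucleus lay, and its part in these values was not tested.

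**Figure D4:**
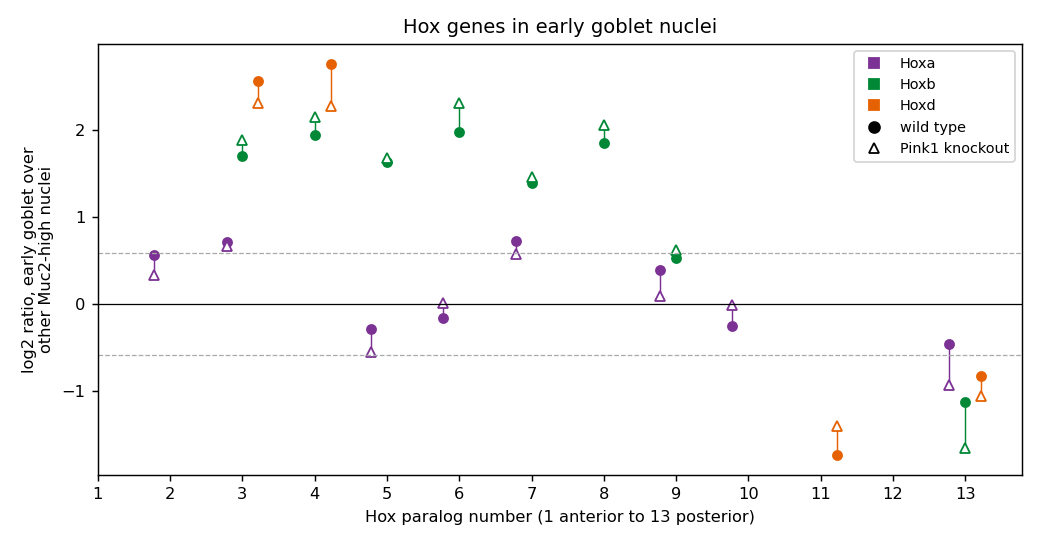
Log2 ratio of members over other Muc2-high nuclei (y axis) for the 20 measured Hox genes by paralog number (x axis), coloured by gene cluster. Circles are the wild-type and open triangles the knockout library, and dashed lines mark 1.5-fold. Hoxa3, Hoxb3 to Hoxb8, Hoxd3 and Hoxd4 lie above the upper line, and Hoxb13, Hoxd11 and Hoxd13 below the lower one.

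Between the libraries, members differed most in immediate early genes, which respond to a stimulus without new protein synthesis. Of 28 measured genes, 22 were called higher and none lower in knockout members, where 5.39% of 9715 genes were called higher and 6.35% lower. The list's median log2 ratio was 1.88, against -0.03 over all genes. Most of the list was higher in the other sets of nuclei too: 21 of 26, with 1 lower, in other Muc2-high nuclei (5.48% of all genes higher and 7.03% lower), 24 of 33 in Muc2-low epithelium (4.74% and 5.86%) and 27 of 32 in non-epithelial nuclei (4.56% and 6.67%).

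Egr1, a zinc finger factor, had 18 UMIs in wild-type members (6.53 CPM) and 4179 in knockout members (1179 CPM), a ratio of 181 (114 to 305) that ran from 165 to 350 over the alternative settings. The ratio was 84.7 (48.3 to 164) in other Muc2-high nuclei, 26.4 (23.7 to 29.5) in Muc2-low epithelium and 11.9 (10.3 to 13.8) in non-epithelial nuclei, and the difference between these ratios was not tested. At 500 UMIs, Egr1 was seen in 0.239% (0.0494 to 0.698) of wild-type and 39.3% (36.9 to 41.7) of knockout members, and unthinned in 0.718% and 74.03%. The wild-type share at 500 UMIs was 0.543% in other Muc2-high, 1.6% in Muc2-low epithelial and 4.1% in non-epithelial nuclei, so the sets also differed there. In the knockout library Egr1 was high in every set, at 1179, 639, 908 and 1259 CPM in members, other Muc2-high, Muc2-low epithelial and non-epithelial nuclei, so no set there gives a background share. Most of the other genes followed with smaller ratios. Within each library, the immediate early list was lower in members than in other Muc2-high nuclei. Of 19 measured genes, 2 were called higher and 12 lower in wild-type members, and 2 and 9 in knockout members. The medians were -0.79 and -0.57.

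Fos, a subunit of the AP-1 factor, had 68 and 1328 UMIs, a ratio of 15.2 (11.9 to 19.7), and 7.35% of the wild-type UMIs came from 1 nucleus. Junb (5.24, 4.23 to 6.56), Jun (3.57, 2.79 to 4.62), Ier2 (6.12, 5.04 to 7.48), the orphan receptor Nr4a1 (5.99, 4.696 to 7.74) and the phosphatase Dusp1 (4.08, 3.002 to 5.63) were all higher in knockout members. Ereg, a ligand of the EGF receptor, had 3 and 73 UMIs, with a ratio of 18.9 (6.23 to 93.9), and 1 nucleus held 19.2% of its knockout UMIs. It was also a leading gene of cluster 6, named by fibroblast markers, which held 7 wild-type and 24 knockout members. The part of that cluster in the ratio was not tested. Klf4 (1.35, 1.24 to 1.48), Fosl2 (1.23, 1.03 to 1.46), Nr4a2 (1.24, 0.997 to 1.53) and Myc (0.8199, 0.509 to 1.32) were not called.

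**Figure D5:**
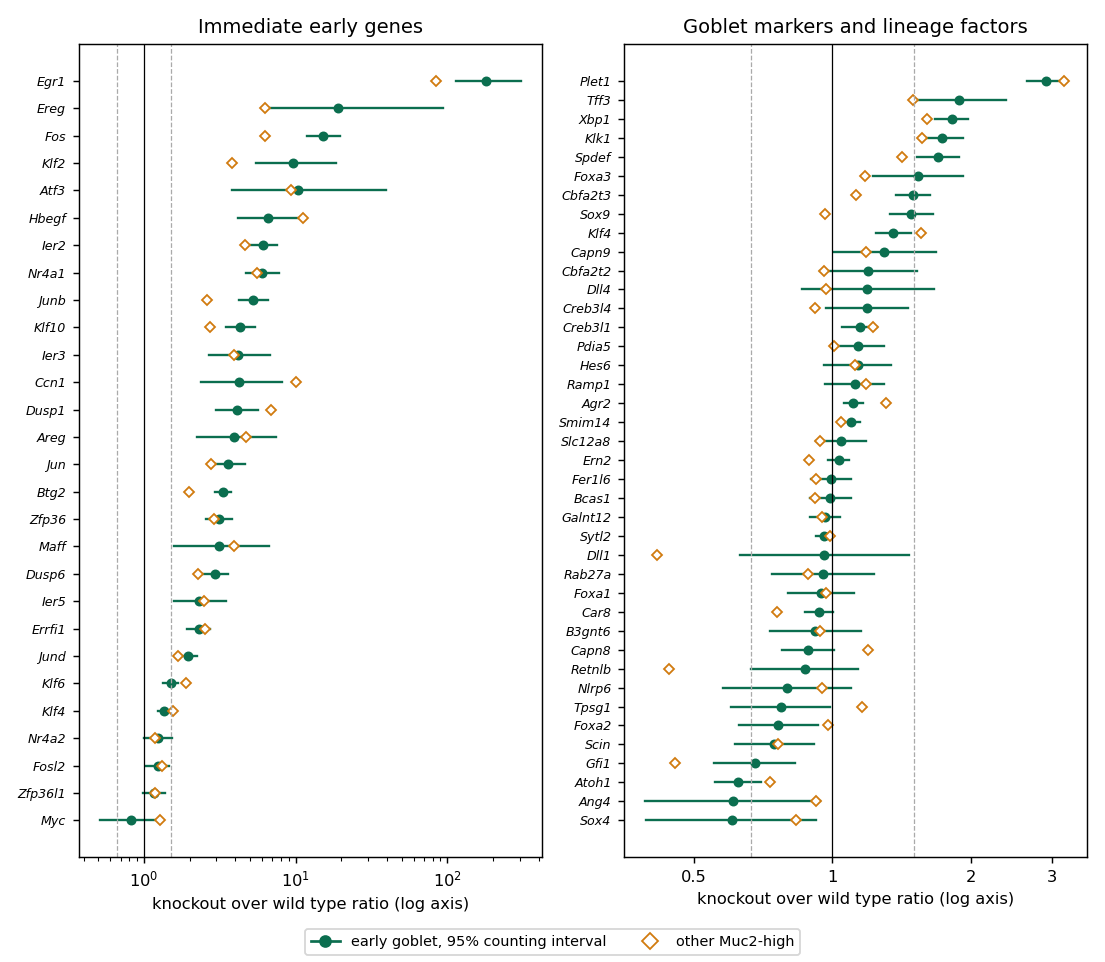
Knockout over wild-type ratio (log axis) of measured immediate early genes (left) and of goblet markers and secretory lineage factors (right). Filled circles with lines are the members with 95% counting intervals, open diamonds the other Muc2-high nuclei, and dashed lines mark 1.5-fold. Egr1 (181) and Ereg (18.9) have the highest ratios on the left; Plet1 (2.91) leads on the right, and Atoh1 (0.625) lies below 1.

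By the bound of the interval nearest to 1, the 12 highest genes in knockout members were Egr1, Fos, Gcg, Ereg, Ido1, Klf2, Ier2, Hist1h1c, Rsad2, C2cd4b, Nr4a1 and H3f3b. H3f3b, which encodes the replacement histone H3.3, had 642 and 4125 UMIs, a ratio of 4.998 (4.598 to 5.44), and 4.78 in other Muc2-high nuclei. The linker histone gene Hist1h1c had 82 and 664 UMIs, a ratio of 6.298 (5.001 to 8.02). C2cd4b, a nuclear protein, had 103 and 782 UMIs, a ratio of 5.91 (4.803 to 7.33) in members and 1.95 (1.28 to 3.02) in other Muc2-high nuclei. A single nucleus held 59.3% of the knockout UMIs of Gcg, the glucagon gene of enteroendocrine cells, 46.3% of those of Rsad2 and 43.8% of those of Ido1. The ratio of Gcg was 21 and ran from 3.39 to 108 over the alternative settings, lowest without possible doublets.

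The 12 lowest genes in knockout members were Rims2, H3f3aos, Slc37a2, Mid1, Tfap4, Rnf186, Scd2, Lss, Rgs2, Catspere2, Hnrnpr and Gnpda1. Rims2, a scaffold of regulated exocytosis, had 156 and 49 UMIs, a ratio of 0.244 (0.173 to 0.339), and 0.262 in other Muc2-high nuclei. Mid1, a ubiquitin ligase, had 0.391 (0.298 to 0.511) in members and 0.868 (0.577 to 1.31) in other Muc2-high nuclei. Lipid genes were among the 12: the desaturase Scd2 had a ratio of 0.502 (0.446 to 0.565) and Lss, which makes lanosterol, 0.478 (0.403 to 0.565). H3f3aos lies antisense to H3f3a, and reads of antisense partners may be split by the counting.

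Most goblet markers lay within 1.5-fold between the libraries, but the share called higher was above that of all genes. Of 28 measured markers, 5 were called higher and 2 lower in knockout members, against 5.39% and 6.35% of all genes, with a median log2 ratio of 0.02. Plet1 had 507 and 1897 UMIs, at 184 and 535 CPM, a ratio of 2.91 (2.64 to 3.22) that ran from 2.85 to 3.1 over the alternative settings. It was 3.19 (2.42 to 4.25) in other Muc2-high nuclei, 2.18 (1.51 to 3.19) in Muc2-low epithelium and 1.16 (0.507 to 2.81) in non-epithelial nuclei. Spdef (1.69, 1.52 to 1.88), the kallikrein Klk1 (1.73, 1.56 to 1.92), Tff3 (1.88, 1.49 to 2.38) and Foxa3 (1.53, 1.22 to 1.92) were also called higher. Atoh1 had 666 and 535 UMIs, at 242 and 151 CPM, a ratio of 0.625 (0.557 to 0.701), which ran from 0.595 to 0.712 and was under 1.5-fold after thinning. Ang4, with 51 and 40 UMIs, was the other lower marker (0.61, 0.393 to 0.941). Foxa3, at 1.47 to 1.84, and Ang4, at 0.423 to 0.841 over the alternative settings, were under 1.5-fold without possible doublets. Car8 (0.935, 0.8704 to 1.004), Ern2 (1.03, 0.9797 to 1.09), Fer1l6 (0.993, 0.897 to 1.1) and Sytl2 (0.961, 0.922 to 1.002) were nearly level.

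Plet1, Spdef and Atoh1 differed in the same directions in both main clusters of members. Plet1 had a knockout over wild-type ratio of 2.95 (2.61 to 3.34) in cluster 2 and 2.55 (2.05 to 3.18) in cluster 14, and Spdef of 1.79 (1.56 to 2.05) and 1.52 (1.18 to 1.96). Atoh1 had 0.672 (0.572 to 0.79) and 0.401 (0.291 to 0.547). The smaller clusters did not all share these directions. Plet1, Spdef and Atoh1 had ratios of 0.649 (0.151 to 2.19), 1.73 and 0.606 in cluster 7, where Plet1 had 11 and 4 UMIs. In the same order the ratios were 9.84, 0.974 and 1.15 in cluster 8, and 3.46, 0.99 and 0.743 in cluster 19. Egr1 had 4 UMIs in wild-type members of cluster 2 against 2320 in knockout members, and 3 against 751 in cluster 14. Whether the ratios differ between the clusters was not tested.

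Of 17 secretory lineage factors, 3 were called higher and 2 lower, against 5.39% and 6.35% of all genes, with a median of 0.25. The higher ones were Spdef, Foxa3 and Xbp1 (1.81, 1.67 to 1.97), and the lower ones Atoh1 and Sox4 (0.605, 0.394 to 0.922, 54 and 42 UMIs). Gfi1 (0.679, 0.554 to 0.831), Sox9 (1.48, 1.33 to 1.65) and Cbfa2t3 (1.496, 1.38 to 1.63) were just short of a call. Hes1, a Notch target that represses Atoh1, had 119 and 494 UMIs in wild-type and knockout members. Its ratio was 3.23 (2.64 to 3.98), against 1.79 (1.46 to 2.21) in other Muc2-high nuclei. As a list, Notch receiving genes moved little in members, with 1 of 10 measured called higher, none lower and a median of 0.05. In other Muc2-high nuclei 3 of 7 were higher and none lower, with a median of 0.22. The part of Notch signalling in the Atoh1 ratio was not tested.

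Of 42 measured genes of the endoplasmic reticulum and the unfolded protein response, 3 were called higher and none lower in knockout members (median 0.16), against 5.39% and 6.35% of all genes. The share called higher was near that of all genes. The 3 were Xbp1, Hspa5 (2.48, 2.2 to 2.79) and Herpud1, a component of protein degradation at the endoplasmic reticulum (2.62, 2.38 to 2.895). Of 28 measured genes of mitochondrial quality control, none was called higher and 3 lower (median -0.07), again against 5.39% and 6.35% of all genes. They were Ppargc1a, the coactivator of mitochondrial biogenesis (0.611, 0.512 to 0.729), and, at few UMIs, the kinase Lrrk2 (36 and 25 UMIs, 0.5401, 0.311 to 0.925) and the mitophagy receptor Fundc1 (33 and 25 UMIs, 0.589, 0.336 to 1.02). Without possible doublets Ppargc1a was under 1.5-fold. No crypt base or Wnt target gene of 19 measured was called in either direction (median 0.04).

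The imprinted RNAs were lower in knockout members. Meg3 had 16033 and 14479 UMIs (0.702, 0.687 to 0.718), Rian 3600 and 2873 (0.621, 0.591 to 0.652) and Mirg 699 and 471 (0.524, 0.465 to 0.5899). Of these ratios, Rian and Mirg passed 1.5-fold and Meg3 did not, and Rian, which ran from 0.578 to 0.693 over the alternative settings, was under 1.5-fold without possible doublets. Within clusters the ratio of Meg3 was 0.847 (0.788 to 0.9103) in cluster 2 and 0.84 (0.819 to 0.862) in cluster 14, and cluster 14 held 16.6% of wild-type and 14.2% of knockout members.

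Summed markers of several other cell types differed between the libraries in members. Summed fibroblast markers were at 66.8 and 136 CPM in wild-type and knockout members (10 and 9 of 10 detected), and 5 of 6 measured ones were called higher. Summed enteroendocrine markers were at 39.9 and 73.9 CPM (10 and 11 of 14 detected), with Scg2, Scgn and Pcsk1n at 0 in both libraries. Summed plasma cell markers were at 258 and 356 CPM in members (5 and 6 of 7 detected) against 1084 and 832 CPM in non-epithelial nuclei. Tnfrsf17 was at 0 in members of both libraries and Mzb1 in wild-type members. Without thinning, 10.7% and 13.6% of members held 2 or more UMIs of these markers, against 5.44% and 6.89% of non-epithelial nuclei. Median depths were unlike, at 2075 and 1973 UMIs in members and 1270.5 and 1246 in non-epithelial nuclei. Of 18 pan-epithelial genes, 8 were called higher and none lower (median 0.52), against 5.39% and 6.35% of all genes. The part of these markers in the differences between the libraries was not tested.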

How the data were processed

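The authors deposited raw UMI counts per gene and barcode for 2 pooled colon libraries, written by Cell Ranger 6.1.2 according to the headers of the count files. The submitters' processing notes name mm10/GRCm38; the sources used here give neither an annotation release nor the handling of introns and strand. The files held 8924 and 12230 barcodes with 16997995 and 22446326 UMIs in the wild-type and knockout libraries. Coordinates came from GENCODE M21, which matched 32235 of 32285 gene identifiers.

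Counts were summed per set and library and divided by the sum over nuclear-encoded genes without the 9 rule genes. Log2 ratios used a prior of 0.5 counts. No count model was fitted with 1 library per genotype; intervals are exact binomial (Clopper-Pearson for shares). Genes needed 50 counts in members over both libraries for the knockout comparison, and 50 in each library over both sets for comparisons of sets. Named genes were those of the lists described, Pink1, and the 12 highest and 12 lowest of each comparison, ranked between libraries by the interval bound nearest to 1 and between sets by the smaller log2 difference of both libraries. Mitochondrial, Xist, Y-linked, immunoglobulin, hemoglobin and rule genes and predicted gene models were left out of the ranking. A4gnt, Hes1, Kit, Meg3 within clusters and other genes outside this rule were named after their values were seen. The members and lists were chosen with earlier results of these data known.

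Possible doublets (Scrublet in scanpy 1.11.5, highest scores at 0.8% per 1000 nuclei) were kept, and removed in an alternative. Leiden clusters (resolution 1) used 2000 variable genes, 30 components and 20 neighbours. Other alternatives changed depth, the limits of the rule, scaling, free RNA and the count minimum. The scripts (Python 3.11.15, numpy 2.4.6, scipy 1.17.1, pandas 2.3.3) were tested on simulated data.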

Additional observations from a re-analysis of the deposited data

How the results depend on the processing

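No paired analysis was possible because each genotype had 1 library, so no replicate could be left out either. For this count a gene ratio was called if it passed 1.5-fold and its interval left out 1. Of 4224 recomputed gene ratios (352 gene results, each under 12 alternatives), 4093 kept their call or stayed uncalled. Another 53 were called only under the alternative, and 78 were no longer called. None that was called changed direction, and direction was not compared for ratios that were not called. The cause of these changes was not tested. The median log2 ratio of crypt base and Wnt target genes over other Muc2-high nuclei, 0.39 in the wild-type library, was 0.61 with the 5 Reg4-type genes under 0.2% of UMIs and ranged from 0.29 to 0.61; in the knockout library it was 0.54, and 0.62 without possible doublets, 0.67 with Muc2 at 1% or more and 0.69 after subtracting 10% free RNA, but 0.03 after thinning to 500 UMIs, where 3 of 8 genes were called higher. The 2 clusters with most members held 71.3% of wild-type and 73% of knockout members, 91.1% and 89% at resolution 0.5, and 70.6% of knockout members at resolution 2. The median of goblet markers over other Muc2-high nuclei, -0.13 in the wild-type and -0.07 in the knockout library, was -0.44 and -0.48 after thinning, where 4 of 23 knockout markers were called higher against 10 of 28. The knockout value was 0.02 with a mitochondrial limit of 1%. Restricting members to the 2 largest clusters was an alternative chosen after seeing the data. Genes with few UMIs (Lrrk2, Fundc1, Pink1, Ereg, Gcg) are limited by depth, as their intervals show.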

Other observations

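In members, genes of 3 further lists differed between the libraries. Of 11 measured glucocorticoid response genes, 6 passed 1.5-fold upward in knockout members and none downward, with a median log2 ratio of 0.93 against -0.03 over all genes, of which 5.39% were called higher and 6.35% lower. Sgk1, a kinase induced by steroids, had 63 and 468 UMIs, a ratio of 5.78 (4.43 to 7.64), and Klf9 had 2.17 (1.91 to 2.47). The glucocorticoid list was higher in the other sets too. In other Muc2-high nuclei 7 of 11 were called higher and none lower (5.48% and 7.03% of all genes). In Muc2-low epithelium 7 of 14 were higher and 2 lower (4.74% and 5.86%), and in non-epithelial nuclei 10 of 15 and 1 (4.56% and 6.67%, median 1.615). Of 14 clock genes measured in members, 2 were higher and 3 lower, against 5.39% and 6.35% of all genes. Per1 (2.201, 1.57 to 3.14) and Bhlhe40 (2.19, 1.95 to 2.47) were higher, while Nr1d1 (0.403, 0.248 to 0.642), Nr1d2 (0.514, 0.437 to 0.604) and Tef (0.484, 0.3403 to 0.683) were lower. The sources used here do not say at which hour tissue was taken.

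Of 19 measured interferon and antigen presentation genes, 7 were higher and none lower (median 0.46), against 5.39% and 6.35% of all genes. Iigp1, an interferon-induced GTPase, had 47 and 337 UMIs, a ratio of 5.58 (4.101 to 7.74), but 1 nucleus held 48.9% of its wild-type and 1 nucleus 20.8% of its knockout UMIs. In other Muc2-high nuclei 5 of 17 measured genes of this list were higher and none lower (5.48% and 7.03% of all genes). In Muc2-low epithelium 11 of 30 were higher and none lower (4.74% and 5.86%), and in non-epithelial nuclei 4 of 28 were higher and 3 lower (4.56% and 6.67%).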
